A study of Homo sapiens with 9 samples.

Results

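RNA sequencing of MV4-11 cells was compared between the 3 libraries of the title stem NCO and the 3 libraries of the title stem KO1. MV4-11 is an established human acute myeloid leukaemia line that carries an MLL fusion. The genes compared were those with at least 1 FPKM in at least 3 of these 6 libraries, which were 12283 of 60612 genes in the table. FPKM is a fragment count divided by transcript length and library size. By their labels, the NCO cells carried a CD36 knockdown and were given decitabine, and the KO1 cells were wild type and were given vehicle, both for 72 h. The stem NC1, with 3 libraries labelled wild type and decitabine for 72 h, entered the same fit and is given beside NCO. By the labels genotype and drug change together between NCO and KO1, and in this comparison the contributions of the knockdown and the drug cannot be told apart. The dose, the knockdown method and the number of clones are not given in the sources used here. Nothing says whether replicates came from separate cultures, so p-values measure only the spread between these libraries.

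CD36 is a membrane receptor that takes up long-chain fatty acids and oxidised lipoproteins. Decitabine is a deoxycytidine analogue that is built into DNA, traps DNA methyltransferases and lowers DNA methylation at the next divisions. In leukaemia and other tumour cells such drugs are known to let silenced repeats and germline genes be transcribed, and double-stranded RNA from repeats can then be bound by cytosolic sensors, which switch on interferon genes and their target genes.

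CD36 (chromosome 7, 80369575 to 80679277 in the table's GRCh38 positions) did not follow the labels. It had 2.31, 2.27 and 2.88 FPKM in the NCO libraries, 2.23, 1.78 and 2.52 FPKM in the NC1 libraries and 0.134, 0.144 and 0.0997 FPKM in the KO1 libraries. The NCO libraries, labelled as the knockdown, were all above the KO1 libraries, and the ratio of the means was 19.8 (log2 fold change of FPKM + 1 1.63, SE 0.11, adjusted p = 6.49e-07 in limma; exact two-sided permutation p = 0.1, the smallest that 3 against 3 allows). CD36 passed the filter only through the NCO libraries, so a difference from KO1 was built in and neither p-value is separate support for it. Between NCO and NC1 the difference of 0.14 on the log2 scale did not pass the test (adjusted p = 0.428; exact p = 0.4). KO1 thus held the least CD36 transcript of the 3 stems, although its label is wild type. Every direction below is stated between title stems, and no library was reassigned.

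The sums of FPKM over all genes were 493061 to 496496 in NCO and 515322 to 530097 in KO1. Mitochondrial genes took 17.4% to 18.5% of the sum in NCO and 14.5% to 15.3% in KO1. The table holds no read counts and its depth is therefore unknown. Log2 values correlated at 0.993 to 0.994 within NCO, 0.994 to 0.995 within KO1 and 0.969 to 0.972 across the stems, over genes, which are not independent replicates. Myeloid markers were present in all 6 libraries. CD33, a surface receptor of myeloid blasts, had 32.6, 33.3 and 32.9 FPKM in NCO and 30.4, 31.2 and 27.5 FPKM in KO1, and SPI1, the myeloid transcription factor PU.1, had 151, 152 and 132 FPKM in NCO and 166, 159 and 164 FPKM in KO1. HOXA9, a target of MLL fusions, was well above 1 FPKM in all 6 libraries, whereas its cofactor MEIS1, also a usual MLL target, had 0.309, 0.191 and 0.0970 FPKM in NCO and 0.191, 0.0422 and 0.131 FPKM in KO1 and lay under the filter.

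Expression differed widely between the stems. A gene is called higher or lower in NCO at a Benjamini-Hochberg adjusted p under 0.05 in limma on log2(FPKM + 1), over all genes tested. By this rule 6501 of 12283 genes (52.9%) were called, 3972 (32.3%) higher and 2529 (20.6%) lower. A called change of at least 2-fold on this scale was found in 280 genes (2.28%), 215 of them higher (1.75%) and 65 lower (0.529%). The libraries of NCO and KO1 did not overlap for 7573 genes (61.7%). Of the genes tested, 280 passed the filter only through the NCO libraries and 97 only through the KO1 libraries, and these had to differ. The balance of directions depended on scaling. Of the called genes 61.1% were higher with the values as deposited. Trimmed-mean scaling made this 48.9% and quantile normalization 49.5%. Leaving out mitochondrial genes and setting the remaining sums equal made it 77.8%. The median of all genes was 0.07 on the log2 scale, and that last setting moved it to 0.19, so a list median within that shift is not read as a direction. Every list count below stands against 32.3% higher and 20.6% lower among all genes, and a list near those shares is not read as a result about its members. In NCO minus NC1 the shares of all genes were 6.34% higher and 8.64% lower. The added 1 FPKM makes fold changes of weakly expressed genes look smaller than they are. In bulk RNA, fewer cells that express a gene and less of its RNA per cell cannot be told apart.

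**Figure D1:**
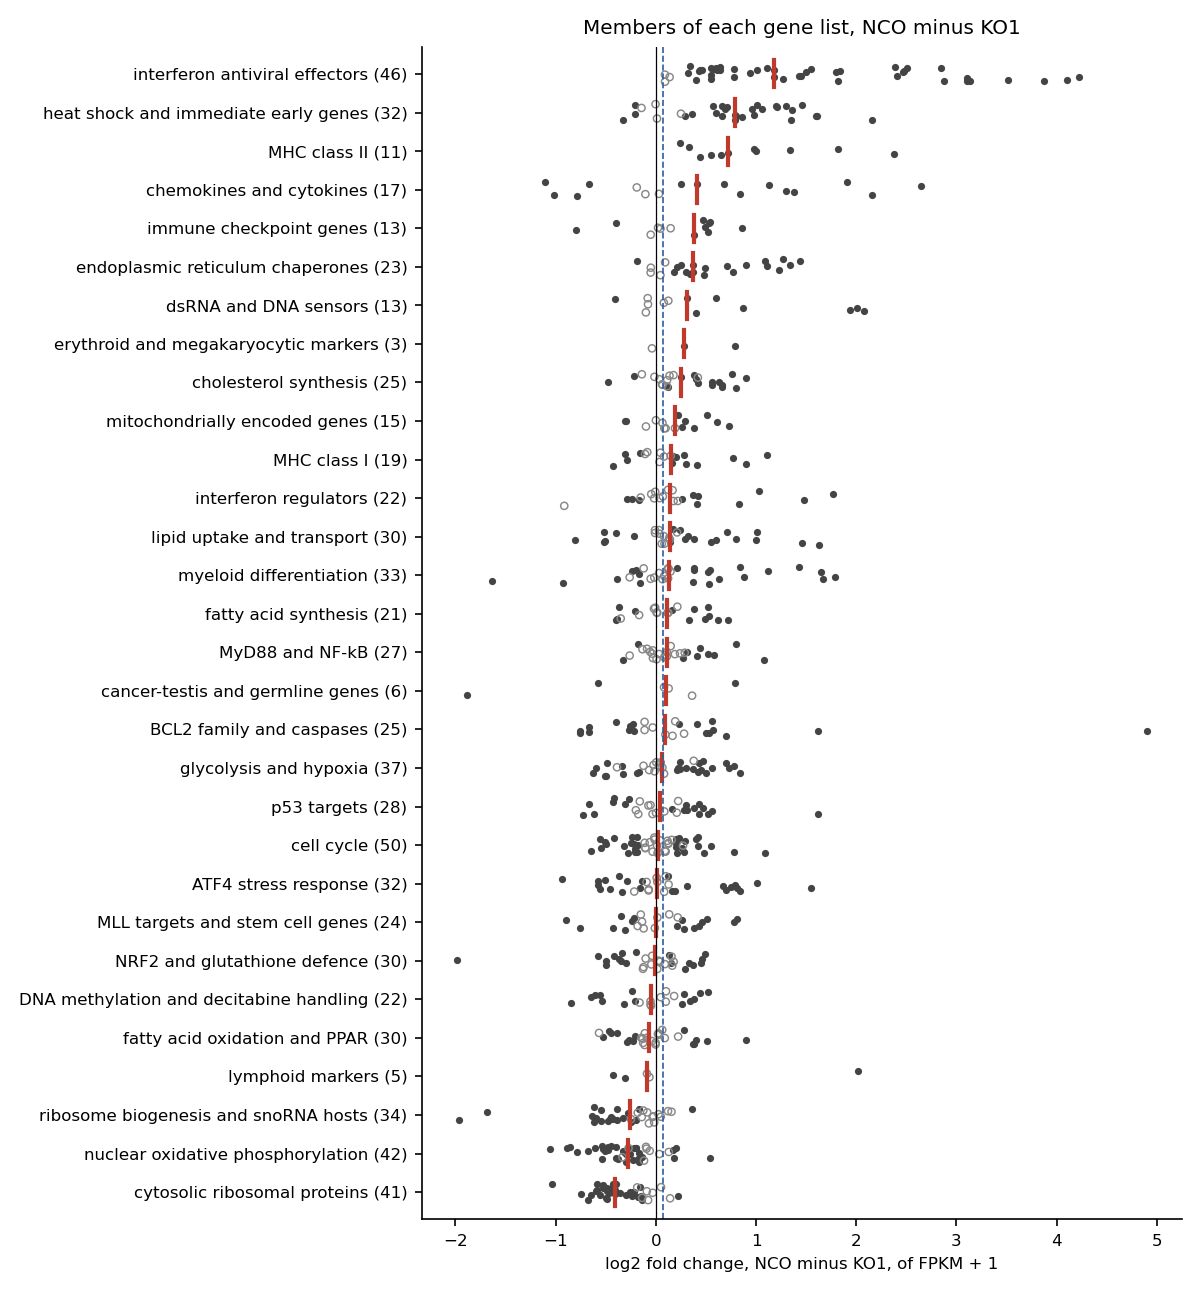
Log2 fold change of FPKM + 1, NCO minus KO1 (x axis), for every tested member of the gene lists (rows, with the number tested in brackets, sorted by median). Filled points passed the test, open points did not, red bars mark list medians and the dashed line marks the median of all genes (0.07). Interferon antiviral effectors lie farthest to the right with a median of 1.18, and cytosolic ribosomal proteins farthest to the left with a median of -0.41.

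Of the 31 gene lists described, the genes that interferon switches on had the largest median change. Of 46 tested antiviral effectors, 43 were higher in NCO and 0 lower, against 32.3% and 20.6% of all genes, with a median of 1.18. The other 3 scalings gave 42 to 45 higher and 0 lower. The 3 that did not pass were IFI35, PLSCR1 and HELZ2, and GBP1 and SAMD9 lay under the filter. The libraries did not overlap for 43 of the 46 (61.7% of all genes), and 5 of them (IFIT1, DDX60, IFI44L, HERC6 and IFIT5) passed the filter only through NCO. Interferon target genes are bound by the ISGF3 complex at a promoter element whose core reads GAAA, any 2 bases, GAAA. This core was searched on both strands of RefSeq promoters (build GRCh38.p14, 250 bases before to 50 after the gene start). An entry was found for 36 of the 46 genes, so the whole list could not be checked. Of these 36, 25 held the core, against 3.65% of all 27305 promoters of the table. The list was made of genes that interferon switches on, so this comparison is void as a test of these data. Of tested genes with an entry, 3.64% of those called higher held the core, 2.88% of those lower and 2.44% of those not called. At 2-fold, 27 of the 148 higher (18.2%) held it and 2 of the 41 lower (4.88%). The genes higher at 2-fold include effectors of the list that hold the core, such as IFI27, HERC5, IFIT1, ISG15 and IFITM3. Their share is therefore no separate support. The windows below show 6 of the effectors and chemokines whose values follow, on the strand of the gene, with the core in capitals (as TTTC, 2 bases, TTTC where it lies on the opposite strand). In each window 1 match is in capitals, and any other match is left in lower case. The promoters held 2 matches each in IFI27, IFIT1, ISG15 and IFITM3, 3 in HERC5 and 1 in CXCL10.
IFI27: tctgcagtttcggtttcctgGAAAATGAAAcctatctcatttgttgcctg
HERC5: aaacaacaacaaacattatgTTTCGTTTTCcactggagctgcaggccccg
IFIT1: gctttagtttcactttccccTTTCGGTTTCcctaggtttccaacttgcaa
ISG15: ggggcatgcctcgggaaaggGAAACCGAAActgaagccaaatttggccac
IFITM3: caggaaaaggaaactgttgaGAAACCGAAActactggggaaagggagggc
CXCL10: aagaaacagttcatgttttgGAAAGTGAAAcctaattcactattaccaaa
These windows lie at chr14:94110621-94110670 (IFI27, plus strand), chr4:88457025-88457074 (HERC5, plus strand), chr10:89392500-89392549 (IFIT1, plus strand), chr1:1013370-1013419 (ISG15, plus strand), chr11:320866-320915 (IFITM3, minus strand) and chr4:76023689-76023738 (CXCL10, minus strand), all upstream of the RefSeq gene start. A match describes these letters only and is not evidence that a factor was bound.

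HERC5, the ligase that attaches ISG15 to newly made proteins, had 43.8, 42.4 and 41.9 FPKM in NCO and 1.12, 1.46 and 1.47 FPKM in KO1 (log2 fold change 4.22, SE 0.07, adjusted p = 1.43e-11). IFI27, a mitochondrial protein strongly induced by type I interferon, had 139.7, 136 and 134 FPKM in NCO and 6.46, 8.07 and 6.58 FPKM in KO1 (4.10, SE 0.07, adjusted p = 1.64e-11). In both genes every NCO library was more than 10 times every KO1 library. The IFIT proteins bind viral RNA that lacks the cap of host messages. IFIT2 had 30.7, 32.5 and 27.6 FPKM in NCO and 1.03, 1.21 and 1.15 FPKM in KO1, a ratio of means of 26.8. IFIT3 had 36.3, 34.9 and 33.9 FPKM in NCO and 2.23, 2.34 and 1.90 FPKM in KO1, a ratio of 16.3. IFIT1 had 11.5, 13.1 and 11.2 FPKM in NCO and 0.383, 0.561 and 0.563 FPKM in KO1, a ratio of 23.8. All 3 IFIT genes were under 3 FPKM in every KO1 library and above 11 FPKM in every NCO library. IFITM3, a membrane protein that blocks virus entry and has near-identical relatives in the same cluster, had 341, 329 and 319.6 FPKM in NCO and 40.4, 37.5 and 32.4 FPKM in KO1 (3.14, adjusted p = 3.90e-11). ISG15, the ubiquitin-like modifier, had 211, 216 and 213 FPKM in NCO and 39.7, 39.3 and 41.3 FPKM in KO1 (2.38, adjusted p = 3.90e-11). OASL, of the 2-5A synthetase family, had 29.3, 29.6 and 26.3 FPKM in NCO and 2.50, 2.54 and 2.24 FPKM in KO1 (3.10, adjusted p = 3.77e-11). The groups were again far apart in all 3. ZC3HAV1, the zinc finger antiviral protein that binds CpG-rich RNA, was no member of the list and had 51.8, 52.0 and 49.4 FPKM in NCO and 6.43, 6.25 and 7.79 FPKM in KO1 (2.74, adjusted p = 2.11e-10).

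**Figure D2:**
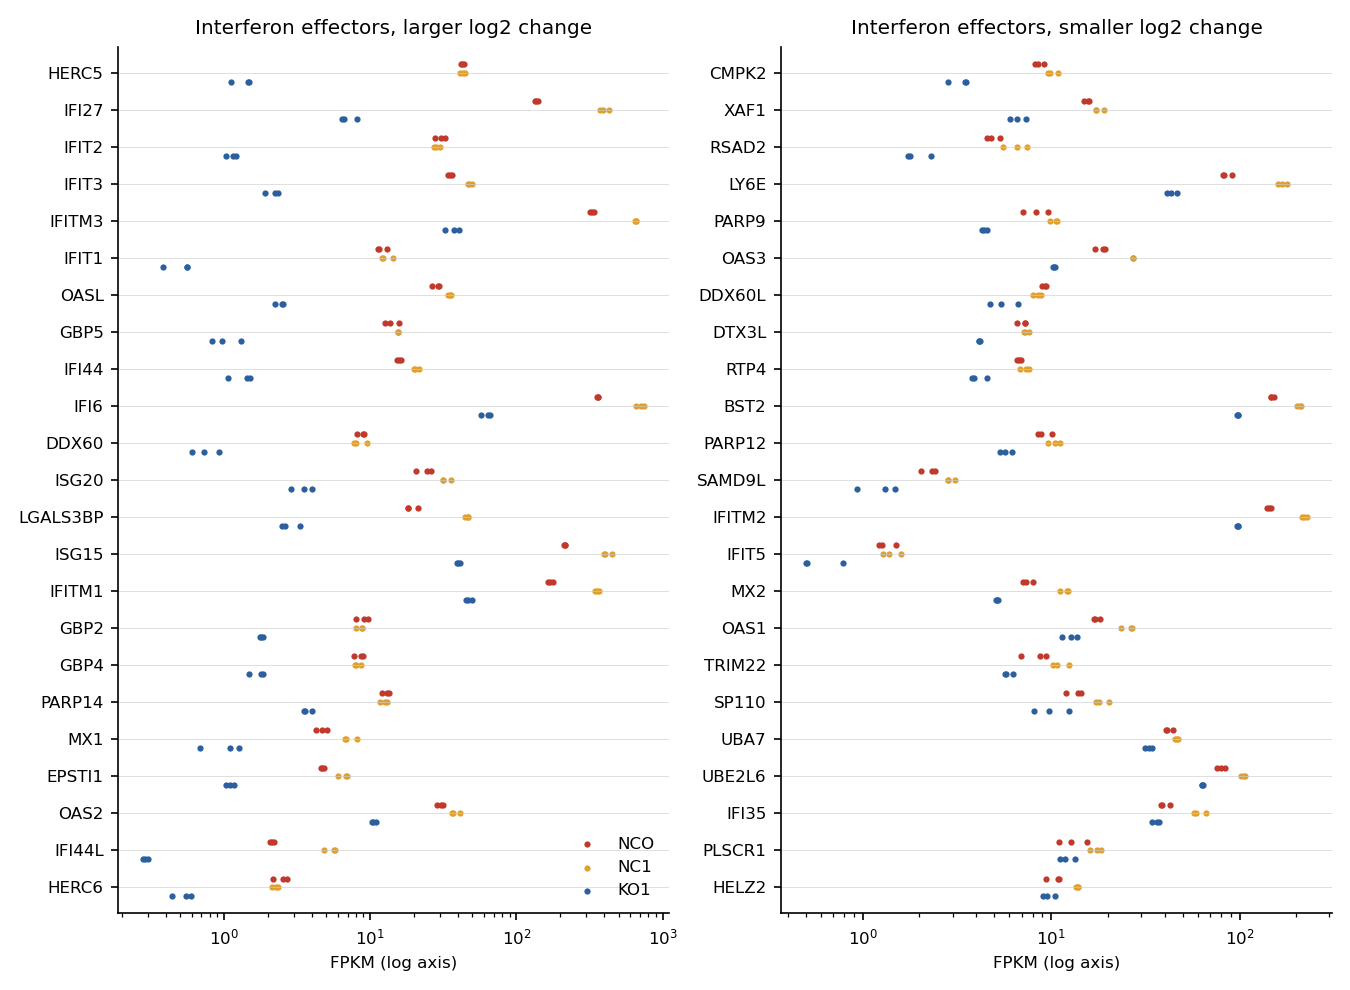
FPKM per library (log axis) of the 46 interferon antiviral effectors tested, sorted by log2 fold change between NCO and KO1 and split over 2 panels, with 1 point for each of the 3 NCO, 3 NC1 and 3 KO1 libraries. In 43 of the 46 genes the NCO points do not overlap the KO1 points, and for IFI27, IFITM3 and ISG15 the NC1 points lie above the NCO points.

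Many of these genes were lower in NCO than in NC1 although higher than in KO1. In NCO minus NC1, where 6.34% of all genes were higher and 8.64% lower, 27 of the 46 effectors were lower and 0 higher. Their median was -0.37. IFI27 had 388, 371 and 428 FPKM in NC1 and was lower in NCO by a log2 difference of -1.52 (adjusted p = 1.78e-06). IFI6, an inhibitor of apoptosis in interferon-treated cells, had 359, 358 and 359 FPKM in NCO, 659, 712 and 748 FPKM in NC1 and 66.1, 57.1 and 64.0 FPKM in KO1, so that NCO lay between the other stems (NCO minus NC1 -0.97, adjusted p = 9.10e-06). HERC5 had 43.3, 41.0 and 44.4 FPKM in NC1, which overlapped NCO (adjusted p = 0.969), and IFIT2 had 27.1, 28.1 and 29.9 FPKM in NC1, with an NCO minus NC1 difference of 0.09 that did not pass the test (adjusted p = 0.436).

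The 3 RIG-I-like sensors of double-stranded RNA were higher in NCO. Of 13 tested sensors of RNA and DNA, 7 were higher (53.8%, against 32.3% of all genes) and 1 lower (7.69%, against 20.6%), with a median of 0.31. DHX58, which encodes the RIG-I-like protein LGP2, had 24.2, 22.9 and 21.2 FPKM in NCO and 4.31, 4.80 and 4.73 FPKM in KO1 (2.08, adjusted p = 6.80e-10). IFIH1, the long double-stranded RNA sensor MDA5, had 15.5, 14.5 and 13.5 FPKM in NCO and 2.91, 3.17 and 2.47 FPKM in KO1 (2.01, adjusted p = 6.05e-09). DDX58, the sensor RIG-I, had 6.12, 6.73 and 5.61 FPKM in NCO and 0.771, 0.843 and 0.972 FPKM in KO1 (1.94, adjusted p = 1.18e-08). For each of these RNA sensors all NCO libraries lay above all KO1 libraries. DDX58 and TLR8, both counted as higher, passed the filter only through NCO and so had to differ. STING1, the adaptor of the cyclic GMP-AMP pathway of DNA sensing, was the gene that fell, with 119, 116 and 119 FPKM in NCO and 154, 159 and 156 FPKM in KO1 (-0.41, adjusted p = 7.92e-06), and trimmed-mean scaling made 2 sensors lower. The adaptor MAVS and the DNA sensor CGAS were among the 5 that did not pass, and TLR3, TLR7 and TLR9 were among the 5 under the filter.

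Transcripts of 2 interferons were near 0 in KO1. IFNB1, the beta interferon, had 4.47, 4.95 and 4.25 FPKM in NCO, 4.28, 4.15 and 6.61 FPKM in NC1 and 0.0285, 0.112 and 0 FPKM in KO1 (2.41, adjusted p = 1.50e-07). IFNL1, a lambda interferon, had 1.86, 2.20 and 2.18 FPKM in NCO and 2.48, 2.35 and 2.91 FPKM in NC1, and was listed at 0 in all KO1 libraries (adjusted p = 2.08e-07). Both genes passed the filter only through the NCO libraries, so a difference was built in, and both were chosen after their values were seen. Among 22 receptors, kinases and transcription factors of interferon signalling, 8 were higher (36.4%) and 3 lower (13.6%), against 32.3% and 20.6% of all genes. The median was 0.15, within the shift that scaling gives, and 12 were higher and 1 lower once mitochondrial genes were left out. STAT3, a cytokine-activated transcription factor, had 31.6, 32.2 and 30.7 FPKM in NCO and 8.51, 8.44 and 8.67 FPKM in KO1 (1.77, adjusted p = 4.59e-10). The receptor kinase JAK2 had 5.64, 5.80 and 5.20 FPKM in NCO, 4.23, 3.65 and 3.83 FPKM in NC1 and 1.42, 1.34 and 1.30 FPKM in KO1, and NCO was also higher than NC1 (0.42, adjusted p = 0.00682). USP18, which removes ISG15 and restrains the receptor, had 11.9, 12.1 and 10.5 FPKM in NCO and 6.19, 5.04 and 4.29 FPKM in KO1 (1.03, adjusted p = 9.93e-06). In these 3 genes all NCO libraries lay above all KO1 libraries. IRF3, the factor that sensors activate, had 47.98, 46.2 and 46.5 FPKM in NCO and 56.4, 56.2 and 59.3 FPKM in KO1 and fell by a little (-0.28, adjusted p = 0.00118). IRF9, the DNA-binding part of ISGF3, spread widely, with 3.24, 3.00 and 3.43 FPKM in NCO and 10.6, 3.25 and 9.15 FPKM in KO1, and did not pass (-0.91, adjusted p = 0.111); it was named after its values were seen.

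Genes of antigen presentation by MHC class II were higher in NCO. Of 15 listed, 11 were tested and 11 were higher (10 after trimmed-mean scaling), with a median of 0.72, and HLA-DPB1 passed the filter only through NCO. The other 4 lay under the filter. HLA-DRA, the alpha chain of HLA-DR, had 25.9, 28.2 and 25.1 FPKM in NCO and 4.65, 4.21 and 4.004 FPKM in KO1 (2.37, SE 0.07, adjusted p = 4.59e-10). HLA-DPA1 had 8.91, 8.36 and 8.91 FPKM in NCO and 1.77, 1.84 and 1.66 FPKM in KO1 (1.82, adjusted p = 1.38e-08). CD74, the invariant chain that escorts class II molecules, had 470.1, 464 and 449.6 FPKM in NCO and 287, 292 and 302 FPKM in KO1 (0.65, adjusted p = 3.54e-06). The stems did not overlap in any of the 3. In NCO minus NC1, 6 of the 11 were lower and 0 higher, against 8.64% and 6.34% of all genes. HLA genes are near-identical to one another, and how the authors' counting split reads among them is not given in the sources used here.

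Class I genes went both ways. Of 19 tested, 9 were higher, 4 lower and 6 did not pass, and trimmed-mean scaling gave 6 and 6. PDIA3 and CALR, chaperones of the loading complex, rose and are given with the endoplasmic reticulum genes below. B2M, the light chain, had 1071, 984 and 1184 FPKM in NCO and 622, 681 and 598 FPKM in KO1 (0.77, adjusted p = 5.13e-05). HLA-E, a ligand of natural killer receptors, had 165, 162 and 159.7 FPKM in NCO and 125, 119.9 and 119.9 FPKM in KO1 (0.41, adjusted p = 1.02e-05). The genes that fell were the immunoproteasome subunits PSMB8 and PSMB10 and the peptide transporters TAP1 and TAP2. PSMB9, the other catalytic subunit of the immunoproteasome, was higher, with 91.1, 89.4 and 85.2 FPKM in NCO and 74.3, 72.8 and 68.4 FPKM in KO1 (0.30, adjusted p = 0.00131). PSMB8 had 154, 154 and 155 FPKM in NCO and 205, 215 and 207 FPKM in KO1 (-0.43, adjusted p = 5.89e-06), and TAP1 had 50.7, 47.6 and 47.4 FPKM in NCO and 59.5, 59.3 and 59.9 FPKM in KO1 (-0.29, adjusted p = 4.46e-04). Against NC1, 11 of the 19 were lower in NCO and 1 higher (8.64% and 6.34% of all genes).

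Of 13 tested checkpoint and costimulatory genes, 7 were higher (53.8%, against 32.3% of all genes) and 2 lower (15.4%, against 20.6%), with a median of 0.38. CD274, which encodes the checkpoint ligand PD-L1 (chromosome 9, 5450503 to 5470566 in the table's positions), did not reach the filter, so it has no test. It had 0.851, 0.551 and 0.657 FPKM in NCO, 0.685, 0.604 and 0.767 FPKM in NC1 and 0.295, 0.255 and 0.173 FPKM in KO1, with all NCO values above all KO1 values. LILRB4, an inhibitory receptor of monocytic leukaemia cells, had 76.8, 76.6 and 76.4 FPKM in NCO and 52.5, 54.6 and 51.2 FPKM in KO1 (0.53, adjusted p = 1.87e-06). LILRB1, a receptor for class I molecules, had 5.93, 5.09 and 5.36 FPKM in NCO and 2.77, 2.19 and 2.75 FPKM in KO1 (0.86, adjusted p = 1.63e-05). VSIR, the inhibitory receptor VISTA, and NT5E, the ecto-enzyme CD73 that makes adenosine, were the pair that fell. VSIR had 30.9, 31.1 and 30.5 FPKM in NCO and 41.3, 39.6 and 41.7 FPKM in KO1 (-0.39, adjusted p = 3.48e-05).

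Chemokines and cytokines went both ways, more of them higher in NCO. Of 17 tested chemokines and cytokines, 10 were higher and 4 lower, with a median of 0.42. TNFSF13B and CXCL11, both counted as higher, passed the filter only through NCO and so had to differ. CXCL10, a ligand of CXCR3, had 13.8, 14.96 and 15.6 FPKM in NCO, 22.2, 23.5 and 30.2 FPKM in NC1 and 1.44, 1.56 and 1.54 FPKM in KO1 (2.65, adjusted p = 4.96e-09), and was lower in NCO than in NC1 (-0.73, adjusted p = 0.00164). CXCL11, of the same receptor, had 3.66, 4.21 and 3.80 FPKM in NCO and 0.0835, 0.113 and 0.0951 FPKM in KO1 (2.15, adjusted p = 6.05e-09), and passed the filter only through NCO. CCL5, which attracts T cells and monocytes, was among the most abundant of these genes, with 1109, 1119 and 1097 FPKM in NCO and 298, 295 and 289 FPKM in KO1 (1.91, adjusted p = 1.11e-10). In each of the 3 the stems were far apart. The death ligand TNFSF10 had 6.38, 6.17 and 5.46 FPKM in NCO and 2.01, 1.58 and 1.93 FPKM in KO1 (1.30, adjusted p = 6.43e-07). Lower were IL1B, CCL2, CCL23 and IL32. IL32 had 18.7, 16.7 and 14.7 FPKM in NCO, 27.9, 27.6 and 26.0 FPKM in NC1 and 36.8, 36.9 and 37.4 FPKM in KO1, with NCO lowest (-1.11 against KO1, adjusted p = 5.17e-07). CCL2, which recruits monocytes, had 7.46, 8.74 and 7.25 FPKM in NCO and 14.3, 14.3 and 14.01 FPKM in KO1 (-0.79, adjusted p = 1.03e-05).

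Signalling through MyD88 and NF-kB showed 8 of 27 genes higher and 2 lower, with a median of 0.11, near that of all genes. REL, counted as higher, passed the filter only through NCO and so had to differ. Trimmed-mean scaling gave 7 higher and 5 lower, and 17 were higher and 1 lower once mitochondrial genes were left out. The adaptor MYD88 had 9.07, 9.55 and 8.78 FPKM in NCO and 7.71, 8.72 and 8.79 FPKM in KO1, which overlapped and did not pass (0.11, adjusted p = 0.244), but it was called higher once mitochondrial genes were left out (0.23, adjusted p = 0.0221). The Src-family kinase LYN had 13.1, 14.2 and 13.2 FPKM in NCO and 13.4, 14.5 and 13.7 FPKM in KO1 and did not pass either (-0.03, adjusted p = 0.635), with a value of 0.09 in that setting. NFKBIZ, an atypical inhibitor protein induced by Toll-like receptors, had 5.88, 5.48 and 4.96 FPKM in NCO and 2.09, 2.07 and 1.96 FPKM in KO1 (1.08, adjusted p = 8.92e-07), and the kinase BTK had 45.4, 45.6 and 44.5 FPKM in NCO and 29.2, 31.1 and 29.5 FPKM in KO1 (0.58, adjusted p = 1.49e-06).

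Heat shock and immediate early genes, which also respond to handling of cells, were higher in NCO for 25 of 32 and lower for 3, with a median of 0.79. The list also holds the long non-coding RNAs NEAT1 and MALAT1, both counted as higher. The median stayed between 0.71 and 0.91 under the 3 scalings. The part of this list in the other results was not tested. HSPA1B, an inducible chaperone whose copy HSPA1A is nearly identical, had 27.9, 25.6 and 25.7 FPKM in NCO and 5.21, 5.12 and 5.07 FPKM in KO1 (2.16, adjusted p = 4.16e-10). HSP90AA1, the inducible form of HSP90, had 98.3, 99.2 and 95.7 FPKM in NCO, 131, 135 and 141 FPKM in NC1 and 40.4, 42.2 and 43.7 FPKM in KO1, so that NCO was above KO1 (1.20, adjusted p = 4.96e-09) and below NC1 (-0.47, adjusted p = 2.96e-04). The early transcription factors JUN and EGR1 rose as well. JUN had 88.5, 87.7 and 81.1 FPKM in NCO and 34.5, 32.9 and 32.0 FPKM in KO1 (1.34, adjusted p = 4.96e-09). EGR1 had 93.7, 90.1 and 80.9 FPKM in NCO and 32.0, 30.2 and 31.9 FPKM in KO1 (1.46, adjusted p = 7.67e-09). HSF1, the factor that drives heat shock genes, had 73.6, 72.7 and 63.8 FPKM in NCO and 85.4, 86.1 and 91.7 FPKM in KO1 and fell (-0.32, adjusted p = 0.00127). HSP90AB1, the constitutive HSP90, had 403, 405 and 390.2 FPKM in NCO and 467, 456 and 459 FPKM in KO1 and was called lower (-0.21, adjusted p = 0.00338), a call that was lost under quantile normalization and again once mitochondrial genes were left out. The paralogs of HSP90 thus moved in opposite directions with the values as deposited. The heat shock element (GAA, any 2 bases, TTC, any 2 bases, GAA), on either strand, was found in 3 of the 28 promoters available for the list, against 0.487% of all promoters. This share describes the chosen list and is no test of these data. No match was found for HSPA1B, HSPA1A or HSP90AA1. The element is shown in capitals for the constitutive chaperone HSPA8 (chr11:123062159-123062211, minus strand), where 1 of the 2 matches in the promoter is marked and lies on the opposite strand.
HSPA8: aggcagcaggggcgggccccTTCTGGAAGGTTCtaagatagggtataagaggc
HSPA8 had 485, 509 and 501 FPKM in NCO and 262, 256 and 249 FPKM in KO1 (0.96, adjusted p = 1.73e-08).

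Chaperones of the endoplasmic reticulum were mostly higher in NCO. Of 23 tested, 18 were higher and 1 lower, with a median of 0.37, and 15 were higher and 2 lower after trimmed-mean scaling. Their promoters often hold the ER stress response element, CCAAT and CCACG with any 9 bases between them, which transcription factors of the unfolded protein response bind. Searched on both strands, it was found in 6 of the 22 promoters available for the list, against 0.0806% of all promoters. This element was chosen after the values were seen, and its share describes the chosen list and is no test of these data. The windows show it in capitals for 3 of the chaperones.
HSPA5: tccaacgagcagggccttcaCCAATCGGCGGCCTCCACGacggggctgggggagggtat
HSP90B1: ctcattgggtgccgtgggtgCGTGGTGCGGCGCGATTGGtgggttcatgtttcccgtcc
CALR: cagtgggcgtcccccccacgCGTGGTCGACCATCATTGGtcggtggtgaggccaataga
These lie at chr9:125241371-125241429 (HSPA5, minus strand), chr12:103930301-103930359 (HSP90B1, plus strand) and chr19:12938364-12938422 (CALR, plus strand), all upstream of the gene start, and in HSP90B1 and CALR the element is on the opposite strand. The promoter of HSP90B1 held 2 matches, of which 1 is in capitals. HSPA5, the luminal HSP70 known as BiP, had 247, 239 and 231 FPKM in NCO and 99.4, 99.0 and 97.9 FPKM in KO1 (1.27, SE 0.05, adjusted p = 3.21e-09). HSP90B1, the luminal HSP90, had 229.9, 229 and 217 FPKM in NCO and 88.8, 92.1 and 84.2 FPKM in KO1 (1.34, adjusted p = 1.22e-08). CALR, the calcium-binding lectin calreticulin, had 899, 920.3 and 891 FPKM in NCO and 502, 475 and 480.1 FPKM in KO1 (0.90, adjusted p = 1.85e-08). All NCO libraries of these genes were above all KO1 libraries. The disulphide isomerase PDIA4 had 126, 127 and 127 FPKM in NCO and 45.2, 45.7 and 47.5 FPKM in KO1 (1.44, adjusted p = 3.49e-10), and its relative PDIA3 had 176, 176 and 171 FPKM in NCO and 79.2, 81.2 and 80.4 FPKM in KO1 (1.11, adjusted p = 2.06e-09). MANF, a secreted stress factor, had 72.6, 78.5 and 83.6 FPKM in NCO, 107, 114 and 104 FPKM in NC1 and 31.7, 33.6 and 32.9 FPKM in KO1 (1.23 against KO1, adjusted p = 2.81e-08). The member called lower was SEC61B, a subunit of the translocon (-0.19, adjusted p = 0.0108), a call that was lost in the same pair of settings.

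Genes of the ATF4 response divided. Of 32 tested, 12 were higher (37.5%) and 11 lower (34.4%), against 32.3% and 20.6% of all genes. The median was 0.01, and -0.07 after trimmed-mean scaling. Stress regulators were among the higher ones. NUPR1, a chromatin-binding stress protein, had 16.3, 13.5 and 13.5 FPKM in NCO and 4.17, 3.97 and 4.66 FPKM in KO1 (1.55, adjusted p = 7.18e-08). PPP1R15A, the phosphatase subunit GADD34, had 69.6, 72.5 and 66.9 FPKM in NCO and 33.9, 34.2 and 33.9 FPKM in KO1 (1.01, adjusted p = 1.54e-07), and DDIT3, the factor CHOP, had 61.4, 56.7 and 56.8 FPKM in NCO and 34.3, 33.6 and 28.6 FPKM in KO1 (0.84, adjusted p = 2.98e-06). Among the lower ones were the pseudokinase TRIB3 and the one-carbon enzyme SHMT2. TRIB3 had 165, 161 and 164 FPKM in NCO and 309.8, 312 and 319 FPKM in KO1 (-0.94, adjusted p = 4.36e-08). SHMT2 had 181, 181 and 182 FPKM in NCO and 275, 267 and 272 FPKM in KO1 (-0.58, adjusted p = 3.49e-07).

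**Figure D3:**
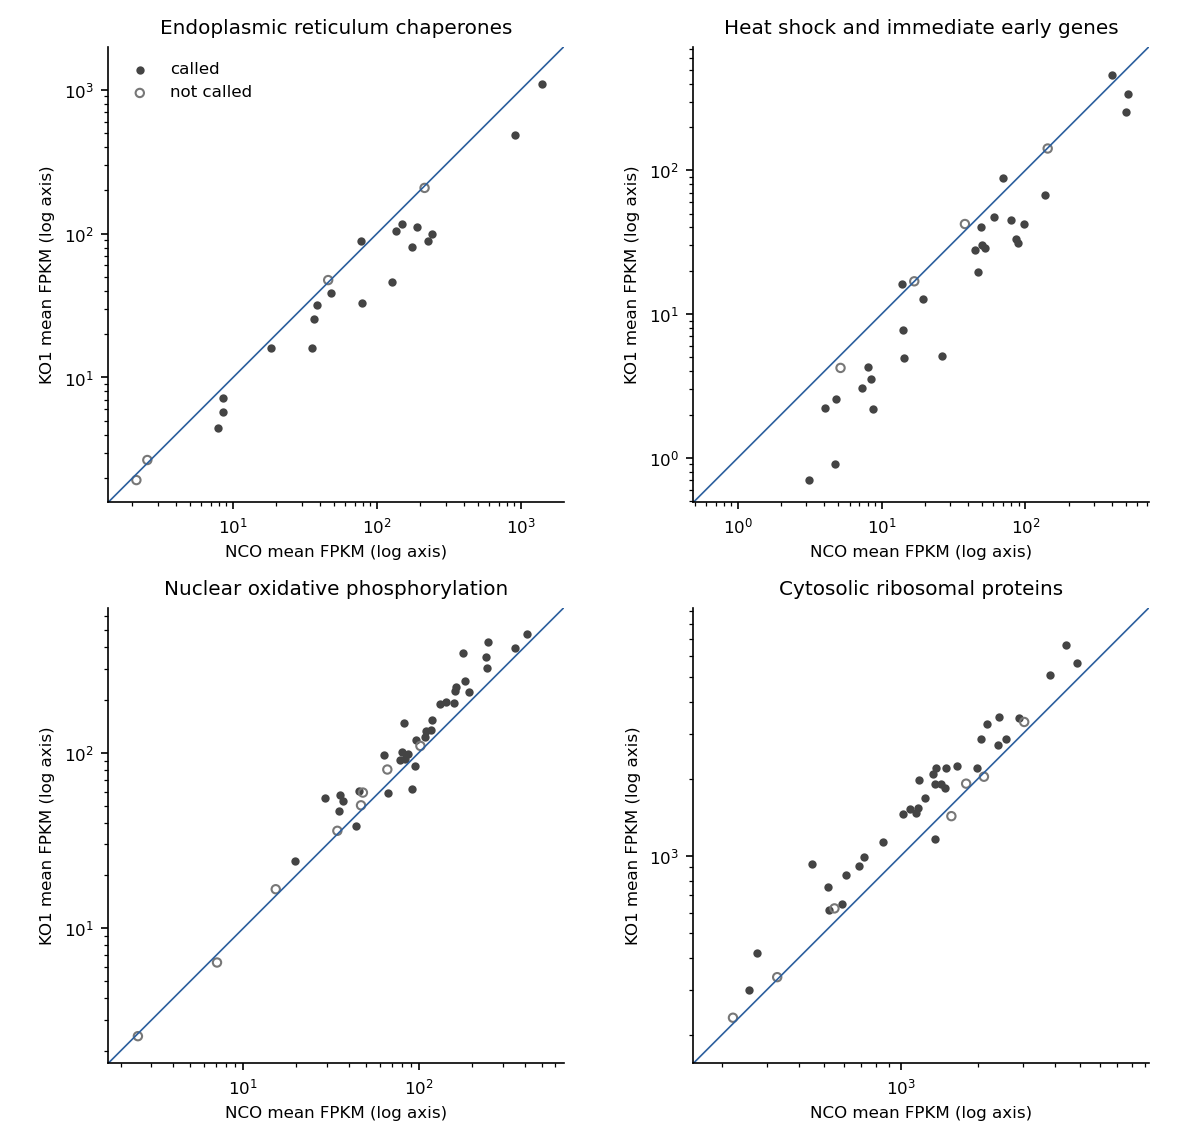
Mean FPKM in NCO (x axis) against mean FPKM in KO1 (y axis), both on log axes and over 3 libraries, for the tested members of 4 gene lists, with the line of equality. Filled points passed the test. Most chaperones and heat shock genes lie below the line, higher in NCO, and most oxidative phosphorylation and ribosomal protein genes lie above it, lower in NCO.

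Myeloid genes moved in both directions. Of 33 tested, 15 were higher and 7 lower, with a median of 0.13, but 20 were higher and 3 lower once mitochondrial genes were left out. The macrophage glycoprotein CD68 had 197, 197 and 194 FPKM in NCO and 75.6, 69.0 and 71.8 FPKM in KO1 (1.43, adjusted p = 3.96e-09). The monocytic transcription factor KLF4 rose as well, with 22.5, 20.8 and 20.5 FPKM in NCO and 6.42, 6.32 and 5.67 FPKM in KO1 (1.64, adjusted p = 4.90e-09). CSF1R, the receptor of macrophage colony-stimulating factor, had 27.0, 26.9 and 25.8 FPKM in NCO and 15.2, 12.8 and 14.2 FPKM in KO1 (0.88, adjusted p = 8.03e-07). These 3 genes did not overlap between the stems. CEBPA, the factor of granulocytic commitment, fell, with 130.3, 119 and 115 FPKM in NCO and 225, 226 and 244 FPKM in KO1 (-0.92, adjusted p = 2.48e-06). MMP9, a neutrophil and macrophage gelatinase, had 4.31, 4.61 and 4.47 FPKM in NCO, 8.43, 9.67 and 7.65 FPKM in NC1 and 15.5, 15.7 and 16.8 FPKM in KO1, lowest in NCO (-1.64 against KO1, adjusted p = 3.49e-08).

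Of 24 tested MLL targets and stem cell genes, 9 were higher (37.5%) and 7 lower (29.2%), against 32.3% and 20.6% of all genes. The median was 0.00, and -0.08 after trimmed-mean scaling. With mitochondrial genes removed 10 were higher and 4 lower and the median was 0.14. HOXA9 had 64.1, 59.7 and 54.8 FPKM in NCO and 43.8, 45.1 and 42.5 FPKM in KO1 (0.43, adjusted p = 9.66e-05). Its neighbour HOXA7 had 0.840, 1.22 and 1.10 FPKM in NCO and 2.71, 3.02 and 2.70 FPKM in KO1 (-0.89, adjusted p = 2.45e-05). The oncogene MYC had 29.2, 28.4 and 26.1 FPKM in NCO and 37.8, 36.6 and 39.3 FPKM in KO1 (-0.43, adjusted p = 8.71e-05). HOXA9 thus rose while HOXA7 and MYC fell, each without overlap. ZEB2, a repressor of epithelial genes, had 14.1, 19.2 and 19.5 FPKM in NCO, 10.7, 12.1 and 9.64 FPKM in NC1 and 9.48, 10.8 and 9.07 FPKM in KO1, and was also higher in NCO than in NC1 (0.65, adjusted p = 0.00714).

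Among 25 tested genes of the BCL2 family and the caspases, 9 were higher and 9 lower (36.0% each, against 32.3% and 20.6% of all genes). Once mitochondrial genes were left out, 12 were higher and 5 lower. The higher ones included the caspases CASP1, CASP4, CASP6 and CASP8, and the lower ones were all of the BCL2 family, which was noticed after the values were seen. Anti-apoptotic BCL2 had 9.40, 9.61 and 9.27 FPKM in NCO, 8.38, 7.81 and 8.25 FPKM in NC1 and 16.5, 16.6 and 16.7 FPKM in KO1 (-0.76 against KO1, adjusted p = 1.02e-06). Its relative MCL1, also anti-apoptotic, had 82.3, 79.2 and 74.6 FPKM in NCO and 52.9, 53.7 and 52.5 FPKM in KO1 (0.56, adjusted p = 5.92e-06). The pore-forming BAX had 34.0, 33.4 and 33.8 FPKM in NCO and 53.5, 54.8 and 54.3 FPKM in KO1 (-0.67, adjusted p = 5.77e-07). BCL2 and BAX thus fell and MCL1 rose. PMAIP1, the BH3-only protein NOXA, had 37.7, 34.9 and 31.6 FPKM in NCO, 27.4, 27.9 and 31.1 FPKM in NC1 and 10.8, 11.3 and 9.81 FPKM in KO1 (1.62, adjusted p = 3.18e-08).

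SEPTIN4, a septin one of whose isoforms, ARTS, antagonises the caspase inhibitor XIAP, showed the largest rise of all genes that the rule for naming covers. It passed the filter only through NCO, with 46.0, 42.1 and 45.3 FPKM in NCO, 41.8, 41.4 and 39.0 FPKM in NC1 and 0.828, 0.448 and 0.317 FPKM in KO1, a ratio of means of 83.7 between NCO and KO1 (4.905, SE 0.10, adjusted p = 3.77e-11). The NCO minus NC1 difference of 0.12 did not pass the test (adjusted p = 0.441), and every KO1 library was under 1 FPKM. Values per gene do not show which isoform was present.

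Of 28 tested p53 targets 11 were higher (39.3%) and 7 lower (25.0%), against 32.3% and 20.6% of all genes. The median of 0.04 was -0.03 after trimmed-mean scaling, and quantile normalization gave 9 higher and 11 lower. CDKN1A, the cyclin kinase inhibitor p21, had 64.6, 63.1 and 61.1 FPKM in NCO and 85.4, 86.2 and 82.1 FPKM in KO1 and was lower (-0.42, adjusted p = 4.31e-05). GDF15, a stress cytokine, had 14.8, 14.6 and 12.3 FPKM in NCO and 23.98, 24.4 and 22.3 FPKM in KO1 and was lower too (-0.72, adjusted p = 1.45e-05). Cell cycle genes were nearly balanced, with 15 of 50 higher and 16 lower, but with 24 and 9 once mitochondrial genes were removed. AURKB, the mitotic kinase of the chromosomal passenger complex, had 53.3, 52.0 and 48.5 FPKM in NCO and 23.8, 23.5 and 23.2 FPKM in KO1 (1.09, adjusted p = 9.43e-08). CDK4, the kinase of G1, had 72.0, 71.1 and 69.5 FPKM in NCO and 110.2, 113 and 112 FPKM in KO1 (-0.65, adjusted p = 1.79e-06), and its partner CCND1 had 12.6, 12.4 and 11.0 FPKM in NCO and 6.44, 6.26 and 6.99 FPKM in KO1 (0.78, adjusted p = 6.05e-06). The kinase and its cyclin therefore moved in opposite directions.

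Among 22 tested genes of DNA methylation and decitabine handling, 6 were higher and 8 lower, with a median of -0.05 that was 0.08 with mitochondrial genes removed. DNMT1, the maintenance methyltransferase and target of the drug, had 50.8, 51.7 and 49.0 FPKM in NCO, 43.1, 46.1 and 44.4 FPKM in NC1 and 40.9, 40.6 and 42.1 FPKM in KO1. NCO was above KO1 (0.29, SE 0.05, adjusted p = 3.39e-04) and above NC1 (0.18, adjusted p = 0.0248). TET2, which oxidises methylcytosine, had 2.02, 2.06 and 1.91 FPKM in NCO, 1.11, 1.12 and 1.21 FPKM in NC1 and 1.04, 1.38 and 0.867 FPKM in KO1, and NCO was above both (0.52 against KO1, adjusted p = 0.00126; 0.48 against NC1, adjusted p = 0.0111). SLC29A1, the transporter that carries cytosine analogues into cells, had 47.4, 44.4 and 45.4 FPKM in NCO and 69.2, 68.6 and 72.5 FPKM in KO1 (-0.60, adjusted p = 1.13e-06). TYMS, the thymidylate synthase, had 54.1, 49.3 and 49.9 FPKM in NCO and 79.4, 72.4 and 75.9 FPKM in KO1 (-0.56, adjusted p = 5.22e-06). Both fell without overlap. DCK, the kinase that activates decitabine, and DNMT3A did not pass the test.

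Germline and cancer-testis genes, which DNA methylation keeps silent in most tissues, mostly lay under the filter. Of 43 listed, 37 did so and were not tested. Of the 6 tested 1 was higher, 2 were lower and 3 did not pass, but 3 were higher under quantile normalization and again once mitochondrial genes were left out. STAG3, a cohesin subunit of meiosis, had 3.36, 2.51 and 2.59 FPKM in NCO and 1.3998, 1.24 and 0.968 FPKM in KO1 (0.79, adjusted p = 2.10e-04). MAGEA4 had 1.96, 2.53 and 2.20 FPKM in NCO, 4.71, 5.30 and 5.34 FPKM in NC1 and 12.03, 10.3 and 10.5 FPKM in KO1, so that it was lowest in NCO (-1.89 against KO1, adjusted p = 2.78e-08; -0.92 against NC1, adjusted p = 2.96e-04). MAGE genes share near-identical stretches, so these values are uncertain. PRAME, a leukaemia antigen, had 59.4, 60.6 and 59.0 FPKM in NCO and 56.4, 55.5 and 57.1 FPKM in KO1 and did not pass (0.08, adjusted p = 0.116), but was called higher under quantile normalization and without mitochondrial genes. MAGEB2 had 34.1, 34.1 and 32.9 FPKM in NCO and 31.4, 32.3 and 28.7 FPKM in KO1 and did not pass (0.13, adjusted p = 0.112), but was also called higher under quantile normalization (0.16, adjusted p = 0.0261) and once mitochondrial genes were left out (0.26, adjusted p = 0.00184).

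Genes around CD36 in lipid uptake and transport were higher for 14 of 30 and lower for 6, with a median of 0.14, and CD36 and MGLL passed the filter only through NCO. LRP1, a receptor for lipoprotein remnants, had 5.75, 5.29 and 5.14 FPKM in NCO and 1.39, 1.20 and 1.37 FPKM in KO1 (1.46, adjusted p = 5.86e-08). LPL, lipoprotein lipase, had 5.64, 5.77 and 5.42 FPKM in NCO and 2.19, 2.31 and 2.38 FPKM in KO1 (1.00, adjusted p = 2.53e-06). CAV1, the caveolar scaffold, had 2.96, 3.21 and 3.14 FPKM in NCO and 0.860, 1.17 and 1.09 FPKM in KO1 (1.01, adjusted p = 7.31e-06). All 3 lay higher in NCO, with CD36 and without overlap. PLIN2, which coats lipid droplets, had 53.4, 51.7 and 52.6 FPKM in NCO and 78.8, 75.7 and 72.6 FPKM in KO1 and fell (-0.52, adjusted p = 4.46e-06). FABP4 and OLR1, other carriers and receptors of lipids, were among the 8 under the filter.

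Of 25 genes of cholesterol synthesis 13 were higher and 2 lower, with a median of 0.26 and with 12 to 19 higher under the 3 scalings. LSS, which closes the sterol rings, had 14.05, 13.4 and 12.9 FPKM in NCO, 11.1, 11.2 and 10.6 FPKM in NC1 and 7.28, 7.30 and 8.05 FPKM in KO1, highest in NCO (0.76 against KO1, adjusted p = 2.87e-06; 0.27 against NC1, adjusted p = 0.0160). Of 21 genes that make fatty acids 8 were higher (38.1%) and 4 lower (19.0%), near the shares of all genes (32.3% and 20.6%). The median was 0.12, and 13 were higher and 3 lower once mitochondrial genes were left out. SCD, the stearoyl-CoA desaturase, had 93.5, 91.8 and 90.2 FPKM in NCO, 72.8, 68.7 and 74.9 FPKM in NC1 and 59.5, 59.1 and 59.4 FPKM in KO1, and NCO was above KO1 (0.62, adjusted p = 8.06e-07) and NC1 (0.34, adjusted p = 0.00116). FASN, the fatty acid synthase, had 63.0, 60.9 and 55.4 FPKM in NCO and 41.6, 40.2 and 44.9 FPKM in KO1 (0.49, adjusted p = 5.99e-05). In NCO minus NC1, 7 of the 21 were higher and 2 lower, against 6.34% and 8.64% of all genes. In the list of fatty acid oxidation and PPAR 6 of 30 were higher and 8 lower, with a median of -0.06. Without mitochondrial genes 11 were higher and 5 lower and the median was 0.07, and quantile normalization gave 3 higher and 10 lower. ACADVL, the very long-chain acyl-CoA dehydrogenase, had 208, 210.4 and 206 FPKM in NCO and 115, 107 and 110.0 FPKM in KO1 (0.90, adjusted p = 1.95e-08), while RXRA, the partner of PPAR receptors, had 17.6, 16.4 and 16.3 FPKM in NCO and 23.9, 24.2 and 25.4 FPKM in KO1 (-0.52, adjusted p = 1.84e-05).

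Nuclear genes of oxidative phosphorylation were mostly lower in NCO. Of 42 tested, 30 were lower (71.4%, against 20.6% of all genes) and 4 higher (9.52%, against 32.3%). Their median was -0.28, and 18 to 33 were lower and 1 to 5 higher under the 3 scalings. Of all genes of 1500 to 3000 bases over 100 FPKM 65.8% were lower too, and the part of length and level in the result was not tested. COX7A2, a small subunit of cytochrome c oxidase, had 162, 166 and 205 FPKM in NCO, 225, 216 and 223 FPKM in NC1 and 373, 391.8 and 344 FPKM in KO1 (-1.06 against KO1, adjusted p = 2.12e-06). ATP5MC1, of the ATP synthase ring, had 36.5, 34.4 and 35.9 FPKM in NCO, 48.7, 49.3 and 53.2 FPKM in NC1 and 57.8, 57.6 and 57.2 FPKM in KO1, lowest in NCO (-0.68 against KO1, adjusted p = 8.34e-07; -0.49 against NC1, adjusted p = 3.12e-04). CYC1, cytochrome c1, had 164, 160.1 and 161 FPKM in NCO and 237, 237 and 234 FPKM in KO1 (-0.54, adjusted p = 1.50e-06). Against NC1, 19 of the 42 were lower in NCO and 1 higher (8.64% and 6.34% of all genes). SDHA, the flavoprotein of complex II, rose, with 92.6, 91.9 and 89.9 FPKM in NCO and 61.1, 63.3 and 63.1 FPKM in KO1 (0.54, adjusted p = 1.92e-05). Complex II also stands in the citric acid cycle, and SDHB rose too while SDHC was lower and SDHD did not pass, all named after their values were seen.

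Of 15 mitochondrially encoded genes 7 were higher and 2 lower, and 4 and 3 after trimmed-mean scaling. The ribosomal RNA MT-RNR2 had 10137, 10159 and 10542 FPKM in NCO and 6222, 6201 and 6179 FPKM in KO1 (0.73, adjusted p = 4.85e-07). MT-CO3, a cytochrome oxidase subunit, had 5598, 5929 and 6038 FPKM in NCO and 7121, 7028 and 7536 FPKM in KO1 and was lower (-0.30, adjusted p = 0.00106). Among 37 tested genes of glycolysis and hypoxia 16 were higher and 9 lower, with a median of 0.07 that was -0.02 after trimmed-mean scaling. PFKM, counted as higher, passed the filter only through NCO and so had to differ. ENO1, enolase, had 1031, 1021 and 1025 FPKM in NCO and 1598, 1598 and 1557 FPKM in KO1 (-0.63, adjusted p = 2.33e-07). PKM, pyruvate kinase, had 453, 463 and 439 FPKM in NCO and 322, 321 and 316 FPKM in KO1 (0.50, adjusted p = 4.04e-06). These consecutive enzymes of the pathway thus moved apart, under every alternative run. Of 30 NRF2 targets 8 were higher and 10 lower, with a median of -0.01, but 13 were higher and 9 lower with a median of 0.12 once mitochondrial genes were left out. Among them AKR1C3, a ketosteroid reductase with near-identical relatives, had 48.8, 50.2 and 49.0 FPKM in NCO and 205, 206 and 185 FPKM in KO1 (-1.99, SE 0.06, adjusted p = 4.35e-10).

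Ribosomal protein genes were mostly lower in NCO. Of 41 cytosolic ribosomal protein genes 33 were lower (80.5%, against 20.6% of all genes) and 1 higher (2.44%, against 32.3%). Their median was -0.41, and 22 to 36 were lower under the 3 scalings. Together they took 12.7% ± 0.285 of the FPKM sum in NCO and 15.4% ± 0.208 in KO1 (SD, n = 3). In NCO minus NC1, 2 of the 41 were lower and 0 higher, against 8.64% and 6.34% of all genes. In NC1 minus KO1 their median was -0.27, so NC1 was low as well. RPLP0, of the ribosomal stalk, had 2159, 2214 and 2150.3 FPKM in NCO and 3438, 3098 and 3236 FPKM in KO1 (-0.58, adjusted p = 3.67e-06). RPL3 had 1502, 1474 and 1506 FPKM in NCO and 2216, 2241 and 2125 FPKM in KO1 (-0.55, adjusted p = 8.56e-06). The 1 called higher was RPL11 (0.22, adjusted p = 0.0292), a call that ended after trimmed-mean scaling, without the filter, without trended and robust moderation, and without NCO replicate 3 or KO1 replicate 1 or 2. Ribosomal protein genes have many processed pseudogenes, so their values are uncertain.

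Host genes of small nucleolar RNAs, many of whose spliced transcripts start with the same pyrimidine tract as ribosomal protein genes, were also lower. In the list of ribosome biogenesis and host genes 20 of 34 were lower and 1 higher. The median was -0.26, and 16 to 24 were lower under the 3 scalings. In NCO minus NC1, 3 of the 34 were lower and 0 higher, against 8.64% and 6.34% of all genes. The median of NC1 minus KO1 was -0.22. SNHG5 had 12.8, 13.2 and 18.8 FPKM in NCO, 25.2, 25.6 and 40.1 FPKM in NC1 and 54.2, 83.4 and 48.4 FPKM in KO1 (-1.96 against KO1, SE 0.27, adjusted p = 6.59e-04). SNHG1 had 40.6, 41.1 and 39.8 FPKM in NCO and 136, 129 and 131 FPKM in KO1 (-1.68, adjusted p = 2.72e-09). Outside the list, SNHG7 had 25.7, 25.0 and 24.4 FPKM in NCO and 62.9, 65.6 and 62.2 FPKM in KO1 (-1.31, adjusted p = 6.74e-08), and SNHG9 had 7.72, 6.94 and 7.99 FPKM in NCO and 17.3, 18.4 and 21.3 FPKM in KO1 (-1.22, adjusted p = 9.73e-05). NPM1, the nucleolar chaperone, had 385, 402 and 406 FPKM in NCO and 576, 608 and 559 FPKM in KO1 (-0.54, adjusted p = 1.38e-05). The 1 that rose was NOP58, a core protein of box C/D particles, with 15.7, 16.9 and 16.3 FPKM in NCO and 12.6, 12.7 and 12.2 FPKM in KO1 (0.36, adjusted p = 1.92e-04).

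Among the 15 largest falls, 5 were non-coding RNAs, the host genes above and DANCR, which had 6.16, 7.98 and 7.69 FPKM in NCO and 18.8, 21.7 and 21.0 FPKM in KO1 (-1.38, adjusted p = 2.03e-06). OTP, a homeobox factor of hypothalamic neurons, had 0.0626, 0.0314 and 0.256 FPKM in NCO, 0.0941, 0.0470 and 0.242 FPKM in NC1 and 5.38, 5.79 and 6.06 FPKM in KO1 (-2.60, SE 0.11, adjusted p = 1.26e-08). It passed the filter only through KO1 and so had to differ. It was the 1 gene under 0.5 FPKM in every NCO library and at 5 FPKM or more in every KO1 library, and 0 genes had the opposite pattern. DZANK1, a zinc ribbon and ankyrin repeat protein, had 1.21, 1.12 and 1.255 FPKM in NCO and 12.2, 14.8 and 6.38 FPKM in KO1 (-2.39, SE 0.27, adjusted p = 7.93e-05), with a wide spread in KO1. CYB561A3, a lysosomal ferric reductase, had 21.2, 20.6 and 16.9 FPKM in NCO and 65.5, 79.0 and 70.3 FPKM in KO1 (-1.82, adjusted p = 2.05e-07). FEZ1, a transport adaptor of neurons, had 15.3, 15.1 and 16.7 FPKM in NCO and 43.3, 50.6 and 47.8 FPKM in KO1 (-1.53, adjusted p = 3.28e-07), and the co-chaperone DNAJC5B had 8.02, 6.17 and 10.1 FPKM in NCO and 22.8, 23.4 and 24.6 FPKM in KO1 (-1.46, adjusted p = 7.09e-06). LTC4S, which makes leukotriene C4, had 26.3, 23.9 and 27.0 FPKM in NCO, 33.5, 35.9 and 40.4 FPKM in NC1 and 76.0, 74.2 and 75.3 FPKM in KO1, lowest in NCO (-1.51 against KO1, adjusted p = 1.95e-08). RNF31, a subunit of the linear ubiquitin ligase, had 3.03, 2.82 and 2.30 FPKM in NCO and 13.2, 4.50 and 13.5 FPKM in KO1. The value of KO1 replicate 2 was far below those of replicates 1 and 3, and the call (-1.49, SE 0.52, adjusted p = 0.0478) ended under 9 alternatives. Among the largest rises outside the lists, the calcium-binding protein TESC had 34.8, 33.8 and 31.9 FPKM in NCO and 4.15, 3.35 and 4.64 FPKM in KO1 (2.78, adjusted p = 6.00e-10), and the membrane-binding protein PLEKHA4 had 14.4, 14.2 and 13.8 FPKM in NCO and 1.799, 1.81 and 1.45 FPKM in KO1 (2.50, adjusted p = 4.59e-10).

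**Figure D4:**
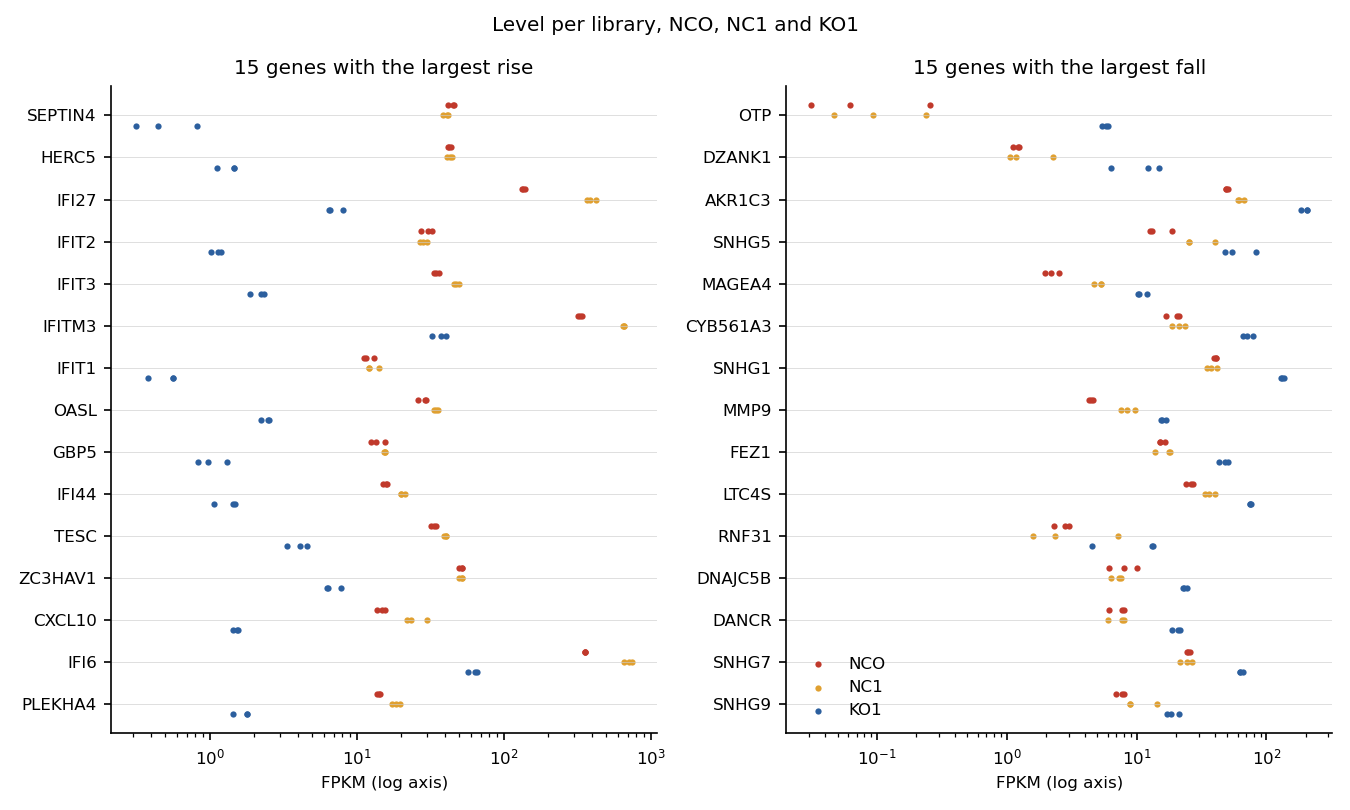
FPKM per library (log axes) of the 15 genes with the largest rise (left) and the 15 with the largest fall (right) between NCO and KO1, with 1 point for each of the 3 NCO, 3 NC1 and 3 KO1 libraries. The NCO points do not overlap the KO1 points in any of the 30 genes, as the rule for these genes requires.

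The shares called higher and lower varied with the length and level of a gene under every scaling, but the pattern with level depended on the scaling. Length was the union of annotated exons in GENCODE 29. Of genes under 1500 bases 13.3% were higher and 31.4% lower, and of genes over 6000 bases 43.7% were higher and 11.2% lower. After quantile normalization the shares were 11.8% and 38.2% under 1500 bases and 31.4% and 15.6% over 6000 bases. Of genes over 100 FPKM 18.7% were higher and 55.7% lower. Quantile normalization made these 28.6% and 39.5%. Of genes under 2 FPKM 30.5% were higher and 12.4% lower as deposited, and 18.8% and 19.1% after quantile normalization. The share called higher was thus smaller over 100 FPKM than under 2 FPKM as deposited, and larger after quantile normalization. Of protein-coding genes 34.7% were higher and 20.01% lower, of lncRNA genes 12.2% and 29.4%, and of processed pseudogenes 8.78% and 31.1%. Oxidative phosphorylation genes had a median exon length of 2952 bases and ribosomal protein genes 3717 bases, against 4673 bases for all genes. Of all genes of 1500 to 3000 bases over 100 FPKM 65.8% were lower, and of those of 3000 to 6000 bases 54.0%, against 71.4% of the oxidative phosphorylation list and 80.5% of the ribosomal protein list. The part of length and level in the results of these lists was not tested.

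**Figure D5:**
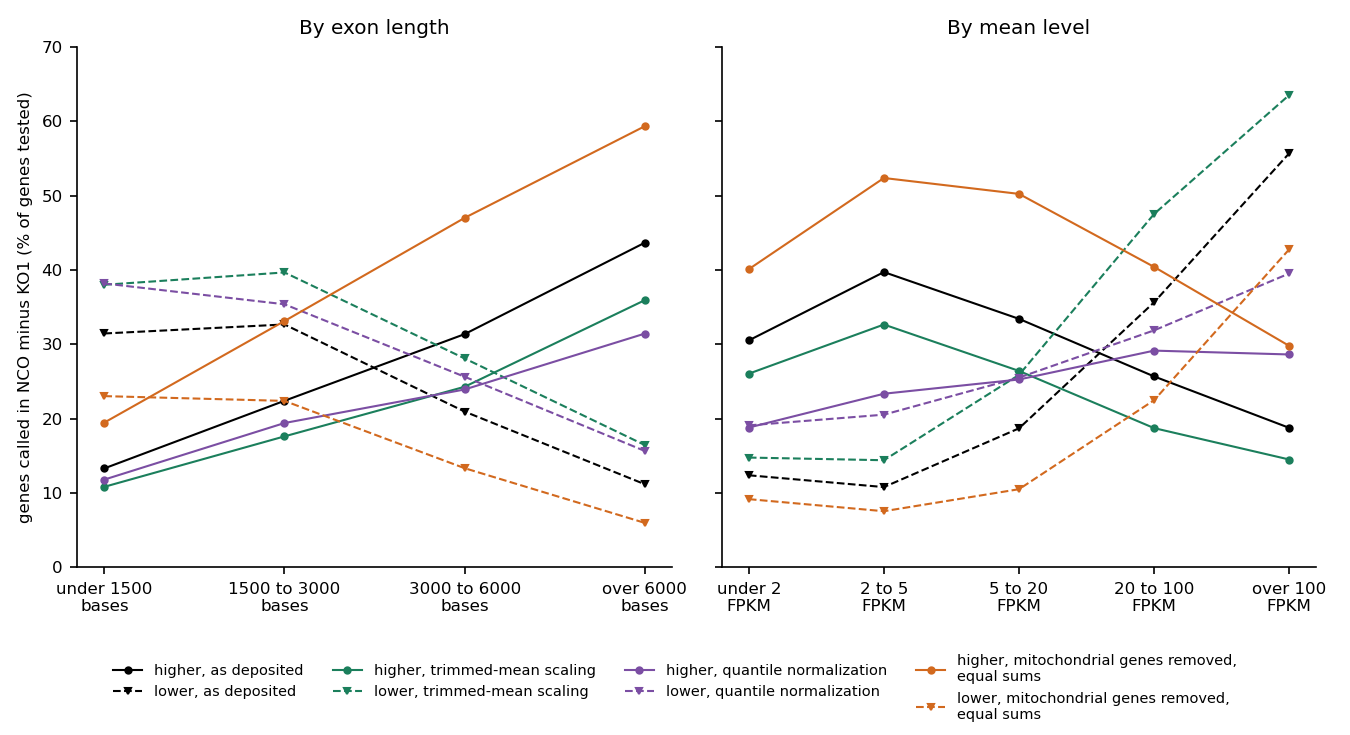
Share of tested genes called higher (solid lines) or lower (dashed lines) in NCO minus KO1, in percent (y axis), by exon length (left) and by mean FPKM over NCO and KO1 (right), under the values as deposited and 3 scalings (colours). The share called lower falls with length from 1500 to 3000 bases on and rises with level above 5 FPKM under all 4. The share called higher is smaller over 100 FPKM than under 2 FPKM except under quantile normalization, where it is larger.

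Most markers of other cell types did not reach the filter. They were 17 of 20 markers of erythroid and megakaryocytic cells, 14 of 19 markers of lymphoid cells and 13 of 15 markers of stroma and epithelium. The alpha globin gene HBA1, the platelet gene PF4, the T cell gene CD3D and the keratin gene KRT19 were listed at 0 in all libraries. Other markers were not. COL1A1 had 1.17, 1.32 and 0.924 FPKM in NCO and 0.263, 0.250 and 0.601 FPKM in KO1. DCN had 0.408, 0.455 and 0.358 FPKM in NCO and 1.42, 1.22 and 0.722 FPKM in KO1. NCAM1 averaged 23.5 FPKM in NCO and 31.7 FPKM in KO1, and NKG7 33.5 and 35.1 FPKM. Summed over each whole list, erythroid and megakaryocytic markers were at 36.5 to 42.7 FPKM in NCO and 29.3 to 32.5 FPKM in KO1, lymphoid markers at 246 to 253 FPKM in NCO and 265 to 272 FPKM in KO1, and stromal and epithelial markers at 29.1 to 32.3 FPKM in NCO and 24.03 to 25.12 FPKM in KO1. The groups did not overlap in any of the 3 sums, nor in 61.7% of all genes tested. A few genes held most of each sum. In NCO, PECAM1 averaged 26.8 FPKM in the stromal and epithelial list and CD4 179 FPKM in the lymphoid list. TFRC, NFE2 and EPOR averaged 15.4, 13.6 and 9.99 FPKM in the erythroid and megakaryocytic list. The part of other cell types in the results was not tested. IL7R, the interleukin-7 receptor, which lymphoid cells carry and activated monocytes can, had 5.74, 5.14 and 4.96 FPKM in NCO and 0.323, 0.674 and 0.667 FPKM in KO1 (2.02, adjusted p = 7.89e-08). KRT8, a keratin, had 1.68, 1.34 and 1.64 FPKM in NCO and 0.657, 0.849 and 0.842 FPKM in KO1 (0.52, adjusted p = 0.00149). IL7R and KRT8 passed the filter only through NCO and so had to differ. CD4, which monocytic lines also carry, had 181, 181 and 175 FPKM in NCO and 193, 190.3 and 188 FPKM in KO1 and did not pass (adjusted p = 0.0677).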

How the data were processed

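Transcript levels of MV4-11 cells in 9 libraries of 3 title stems were analysed from the deposited gene table. Per the labels, Trizol served for RNA extraction and a TruSeq kit for library preparation. Per the submitters' processing notes, CASAVA 1.8, Trimmomatic, FastQC, HISAT2, StringTie and edgeR were used, with GRCh38 as the build. The header of the deposited table does not name its unit, and FPKM, as the authors' StringTie step gives it, was inferred from the values and those notes. Genes with at least 1 FPKM in at least 3 of the 6 NCO and KO1 libraries were kept. Values were taken as log2(FPKM + 1) and fitted in limma 3.58.1 (R 4.3.3) with 1 mean per stem over the 9 libraries, trended and robust moderation, and Benjamini-Hochberg adjustment over 12283 genes. Every adjusted p in the text comes from limma and is two-sided, and differences are NCO minus KO1 unless another pair is given. Exact permutation tests over samples used scipy 1.17.1 (Python 3.11.15). Whole reads could not be recovered from the values, so depth and counting error are unknown.

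The gene lists and the members were chosen with earlier results of these data known. Genes were named by a rule. It took CD36, CD274, LYN, MYD88 and DNMT1, the 15 largest rises and the 15 largest falls among called genes with a mean of at least 5 FPKM in NCO or KO1 and no overlap, and in each list up to 6 members with the smallest adjusted p and 2 in the rarer direction. A few genes that the rule takes are not reported here. Other genes named, ISG15 and SPI1 among them, were chosen after their values were seen. Of the tested genes 99.6% had an entry in GENCODE 29, from which exon lengths came, and 47.7% of these had the same start and end as in the table. Promoter windows are from the RefSeq table of GRCh38.p14. The fits were tested on simulated data. The alternatives were replicate blocks, 3 other scalings, pseudocounts of 0.1 and 0.5, no filter, a filter at 5 FPKM, the 6 libraries alone, no trend, and leaving out each library.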

Additional observations from a re-analysis of the deposited data

How the results depend on the processing

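Of 207 named genes that were tested, 190 kept both their call and their sign under all alternatives. Those whose sign turned were PRAME (-0.000604 under trimmed-mean scaling), CD4 (0.0804 under quantile normalization, 0.0499 without mitochondrial genes), LYN (0.0938), EPOR (0.0879) and NKG7 (0.0710), these 3 without mitochondrial genes, and none of them had been called. EPOR ranged between -0.130 and 0.04995 when each library was left out. The genes called, 6501, numbered 5585 to 6789 when each library was left out. The genes called lower in NCO, 2529, were 1620 without mitochondrial genes. The genes called higher in NCO, 3972, were 2341 with the filter at 5 FPKM, which tests fewer genes. The genes called at 2-fold, lower in NCO, 65, were 99 under quantile normalization, 40 without mitochondrial genes, 187 with a pseudocount of 0.1 and 111 with 0.5. The genes called at 2-fold, higher in NCO, 215, were 452 with a pseudocount of 0.1 and 138 with the filter at 5 FPKM. Where no construction of the setting accounts for a change, the cause was not tested.

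The labels do not say what a replicate number marks, and the values cannot settle whether the numbers pair the samples. The deviations of libraries with the same number correlated at 0.013, 0.095 and 0.027, and libraries of numbers 2 and 3, but not of 1, correlated best with their own number. With the replicate number as a block 6176 genes were called, 6071 of them shared with the fit without it.

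Precision rests on 3 libraries a stem of unknown depth, and whether they are separate cultures is not given. The labels and CD36 disagree, genotype and drug change together, and the balance of higher and lower genes moves with the scaling, so small changes of single genes hold only relative to the scaling used.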

Other observations

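RNF31 and IRF9, neighbouring genes on chromosome 14, varied alike among the KO1 libraries. IRF9 had 3.24, 3.00 and 3.43 FPKM in NCO, 4.18, 2.81 and 7.63 FPKM in NC1 and 10.6, 3.25 and 9.15 FPKM in KO1, so it also spread within NC1. RNF31 had 3.03, 2.82 and 2.30 FPKM in NCO and 13.2, 4.50 and 13.5 FPKM in KO1. In both genes replicate 2 of KO1 lay near the NCO libraries and replicates 1 and 3 lay far above them.

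In absolute FPKM the largest differences, chosen after the values were seen, were in mitochondrial and ribosomal transcripts. Among nuclear protein-coding genes CAP1, an actin-binding protein, averaged 3306 ± 109 FPKM in NCO and 2224 ± 58.0 FPKM in KO1 (SD, n = 3 each). GAPDH, a glycolytic enzyme often used to scale transcript measurements, averaged 3929 ± 82.2 FPKM in NCO and 5507 ± 259 FPKM in KO1. EEF1A1, the translation elongation factor, averaged 3442 ± 140.3 FPKM in NCO and 4830.2 ± 340.1 FPKM in KO1. CAP1 was thus higher in NCO, and GAPDH and EEF1A1 were lower.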
